A study of Mus musculus with 6 samples.

Results

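The salt-inducible kinases (SIKs) and the cAMP-CREB response are described here through 9 genes: the kinases Sik1, Sik2 and Sik3, the CREB-regulated transcription co-activators Crtc2 and Crtc3, the transcription factors Creb1 and Crem, and the phosphodiesterases Pde4b and Pde4d. They were taken by gene symbol from the 16111 genes of the deposited expression table. All 9 were listed there and all 9 passed the filter on low counts, which left 11408 tested genes. The members were selected on the measured difference in counts between the genotypes (the log2 fold change and its test). The values of the 9 genes across the genotypes are therefore a description, and their p-values are not printed. Where a member is said to be past a p threshold, this is a description too.

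The samples were fetal liver macrophages of mouse strain C57BL/6 RCC, isolated at E13.5 from wild-type fetuses (3 samples) or from fetuses deficient in Ahrr (3 samples, labelled Ahrr, with AhRR-/- named in the culture protocol). Ahrr encodes the repressor of the aryl hydrocarbon receptor, a transcription factor that responds to small ligands, and the design compares gene expression with and without it. Cells of both genotypes grew for 5 weeks in RPMI medium containing 2% GM-CSF, which sustains macrophage growth, and the non-adherent cells were harvested for polyA RNA. The labels number the mice 1 to 3 within each genotype and do not say whether a culture came from 1 fetus or several, or describe how the Ahrr allele was made.

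Cyclic AMP made by adenylyl cyclases activates protein kinase A, which phosphorylates CREB and, in parallel, phosphorylates and inhibits the SIKs. Active SIKs phosphorylate the CRTC co-activators and the class IIa histone deacetylases, which are then held in the cytoplasm by 14-3-3 proteins. When SIKs are inhibited, CRTCs enter the nucleus and join CREB at its target genes. PDE4 enzymes degrade cAMP and end the signal. Sik1, Pde4b, Pde4d and the short repressor forms of Crem are themselves known CREB targets. In macrophages, inhibition of SIKs is known to raise interleukin 10 and lower inflammatory cytokines.

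Total counts per library ran from 3556106 (Ahrr-deficient replicate 1) to 41668336 (Ahrr-deficient replicate 2), an 11.7-fold range. Levels are given as scaled CPM, counts per 1000000 counts of a library after its total was multiplied by a TMM factor, a correction for library composition that lay between 0.904 and 1.04. All 11 macrophage markers listed were expressed, with a summed level of 24437 to 27203 scaled CPM in the wild-type libraries and 15741 to 23327 in the Ahrr-deficient libraries. Lyz2, the lysozyme gene, made up 76.0% to 81.8% of that sum. Without Lyz2 the sum was 4942 to 5172 scaled CPM in wild-type and 3777 to 4350 in Ahrr-deficient libraries, and without the TMM factors the sum over the 11 markers overlapped between the groups. Of these 11, 8 had a negative and 3 a positive log2 fold change, and Itgax was higher and Csf1r lower in the Ahrr-deficient samples by the edgeR test at an adjusted p under 0.05. The 4 marker genes each of hepatocytes, dendritic cells, stroma and lymphocytes, together with those of granulocytes, mast cells, red cells and endothelium, summed to at most 6.49 scaled CPM per cell type and library, and every mast cell, red cell, stromal and lymphocyte marker was missing from the listed genes. The listed Ahrr level was 4.60, 4.74 and 5.21 scaled CPM in the wild-type libraries and 2.23, 2.47 and 1.18 in the Ahrr-deficient ones, a log2 fold change of -1.21 ± 0.26 (SE) with an adjusted p of 0.0151 in edgeR, so reads of the gene remained in all 3 libraries labelled Ahrr-deficient. Counts of Ahrr were 101, 27 and 38 in wild-type replicates 1, 2 and 3 and 8, 107 and 12 in the Ahrr-deficient ones. The adjusted p of Ahrr was 0.0631 with wild-type replicate 1 left out and 0.0502 with wild-type replicate 3 left out. With all libraries thinned to the smallest total its log2 fold change was -0.74 (adjusted p = 0.301). In RNA from whole cultures, fewer cells of a type and less RNA per cell cannot be told apart.

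Sequences of the group are shown for what they bear on in the measurements. The members come in families of close relatives, and a read that matches 2 relatives could be counted for either. Reads were 75 bases long. The longest identical run between the coding sequences of Sik1 and Sik2 was 14 bases (Sik1 exon 4, chr17:31851538-31851551, minus strand; Sik2 exon 3, chr9:50995613-50995626, minus strand; GRCm38, GENCODE release 21). It is printed 5′ to 3′ in capitals between 20 flanking bases on each side.
Sik1: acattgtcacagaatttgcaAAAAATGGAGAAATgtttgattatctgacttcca
Sik2: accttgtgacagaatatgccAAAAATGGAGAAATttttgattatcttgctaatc

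Sik2 and Sik3 shared a longer run of 19 bases, which crosses the junction of exons 4 and 5 in both genes. Its larger block lies at chr9:50935416-50935433 (minus strand) in Sik2 and at chr9:46155523-46155540 (plus strand) in Sik3, in the kinase core beside the activation loop, where protein kinases are most alike. Capitals again mark the shared run.
Sik2: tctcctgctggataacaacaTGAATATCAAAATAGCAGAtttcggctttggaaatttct
Sik3: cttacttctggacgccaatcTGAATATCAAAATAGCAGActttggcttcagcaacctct

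The Crtc2 and Crtc3 coding sequences shared at most 17 bases, across exons 5 and 6 of each gene (larger blocks at chr3:90259209-90259222, plus strand, and chr7:80618594-80618607, minus strand). This stretch borders the conserved serine at which SIKs phosphorylate CRTC proteins to create a 14-3-3 binding site.
Crtc2: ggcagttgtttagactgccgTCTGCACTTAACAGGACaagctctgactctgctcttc
Crtc3: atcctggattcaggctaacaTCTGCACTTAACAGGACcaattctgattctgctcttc

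Pde4b and Pde4d shared the longest run of any of the family pairs compared, 32 bases across exons 8 and 9 of the transcripts compared (larger blocks at chr4:102590831-102590856 and chr13:109933868-109933893, both plus strand). It lies in the upstream conserved part that PDE4 enzymes have in common.
Pde4b: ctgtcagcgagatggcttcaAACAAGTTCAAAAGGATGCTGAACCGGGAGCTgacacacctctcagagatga
Pde4d: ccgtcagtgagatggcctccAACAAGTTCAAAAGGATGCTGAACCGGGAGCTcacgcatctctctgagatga

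No shared run reached the length of a read. Sik1 and Sik3 shared 11 bases of coding sequence and Creb1 and Crem 18. An overlap with a gene on the other strand was found for 2 members. The exons of Sik2 overlap those of Ppp2r1b over 1429 bases and those of Crem overlap Gm6225 over 472 bases, and whether counting used strand is not given in the sources used here. Gm6225 held 1 to 14 counts per library against 85 to 642 for Crem, whereas Ppp2r1b held 212 to 2622 counts against 216 to 2106 for Sik2, so the Sik2 level is the less certain.

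Promoter windows from RefSeq (GRCm38.p6), the 250 bases before an annotated start, were found for 6 members, with 9 windows in all: 4 of Pde4b and 1 each of Creb1, Crtc3, Sik2, Sik3 and Pde4d. They were searched on both strands for the full cAMP response element TGACGTCA, for its core TGACG, which reads CGTCA on the other strand and also lies within every full element, and for the core GCGTG, which reads CACGC on the other strand, of the xenobiotic response element that the aryl hydrocarbon receptor binds. None of the 9 windows held the full element, which occurs in 1.55% of all 32851 windows of the same length. Sik1, Crem and Crtc2 had no window in the search, so this absence does not cover them. All windows of Pde4b and Pde4d lie inside these genes, so it does not cover their outermost starts either. The CRE core was in 2 windows, against 17.8% of all windows, and the xenobiotic core in the same 2 windows, against 28.2%. A match is a description of letters, not of a bound site. The first of the 2 windows belongs to a start inside the Pde4b gene (chr4:102421305-102421554, plus strand), and its CRE core begins at position -34, in capitals here, with the xenobiotic core at -84.
Pde4b: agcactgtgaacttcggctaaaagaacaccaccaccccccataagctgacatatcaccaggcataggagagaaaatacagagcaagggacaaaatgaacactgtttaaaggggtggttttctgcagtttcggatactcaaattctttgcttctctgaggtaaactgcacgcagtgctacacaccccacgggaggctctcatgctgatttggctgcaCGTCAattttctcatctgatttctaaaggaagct

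The other window is that of Sik3 (chr9:46012570-46012819, plus strand), which held 3 CRE cores, at -133, -116 and -57, and a xenobiotic core at -189. The CRE cores are in capitals.
Sik3: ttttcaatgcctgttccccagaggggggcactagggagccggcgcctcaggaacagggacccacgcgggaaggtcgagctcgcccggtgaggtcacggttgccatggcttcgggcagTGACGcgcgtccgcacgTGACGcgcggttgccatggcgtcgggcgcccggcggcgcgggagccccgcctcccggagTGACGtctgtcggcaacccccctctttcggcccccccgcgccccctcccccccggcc

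Sik1 (ENSMUSG00000024042.6, chr17:31844250-31855804, minus strand), the kinase of the family whose transcript is induced by cAMP, had the largest difference of the 9 genes. Its level was 135, 151 and 149 scaled CPM in wild-type replicates 1, 2 and 3, and 50.1, 29.2 and 38.2 in the Ahrr-deficient replicates. Every Ahrr-deficient library was far below every wild-type library, and the wild-type libraries were close together. The means were 144.9 ± 8.5 (SD, n = 3) and 39.2 ± 10.5 (n = 3), and the fitted log2 fold change was -1.94 ± 0.17 (SE). Each Ahrr-deficient library held 34.6%, 20.2% and 26.4% of the wild-type mean, for replicates 1, 2 and 3. The counts behind these levels were 2967, 858 and 1086 in wild-type libraries and 180, 1267 and 389 in Ahrr-deficient ones, so the highest of the Ahrr-deficient values rests on the fewest reads.

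Sik2 (ENSMUSG00000037112.16, chr9:50892801-51009073, minus strand), a kinase best known from fat cells, where protein kinase A phosphorylates it, was at 56.3, 62.0 and 53.6 scaled CPM in wild-type and 60.1, 48.6 and 44.5 in Ahrr-deficient libraries. The groups overlapped, since Ahrr-deficient replicate 1 lay above wild-type replicates 1 and 3. Sik2 had a log2 fold change of -0.18 ± 0.12. Sik3 (ENSMUSG00000034135.15, chr9:46012820-46224194, plus strand), the family member that controls sleep need and skeletal growth in mice, was at 70.8, 66.4 and 73.0 against 58.8, 62.5 and 62.3 scaled CPM. All 3 Ahrr-deficient libraries were lower than the lowest wild-type library, by a small margin, with a log2 fold change of -0.19 ± 0.08. Without the TMM factors the groups overlapped for Sik3.

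Per length of exon, Sik1 led the SIK transcripts by a wide margin in every wild-type library, and in Ahrr-deficient replicates 1 and 3 by a smaller one. The mean wild-type levels were 28.2 scaled RPKM (scaled CPM per kilobase of exon) for Sik1, 7.52 for Sik3 and 6.01 for Sik2. In Ahrr-deficient cells they were 7.64 for Sik1, 6.57 for Sik3 and 5.36 for Sik2. In Ahrr-deficient replicate 2 Sik3, at 6.71, was above Sik1, at 5.70. Sik1 made up 67.6% ± 1.3 (SD, n = 3) of the summed SIK level in wild-type libraries, with a range of 66.1% to 68.3%. Its share in Ahrr-deficient libraries was 38.6% ± 5.6, with a range of 32.6% to 43.6%. The summed SIK level was 41.7 ± 1.7 scaled RPKM in wild-type and 19.6 ± 2.5 in Ahrr-deficient libraries, with no overlap.

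**Figure D1:**
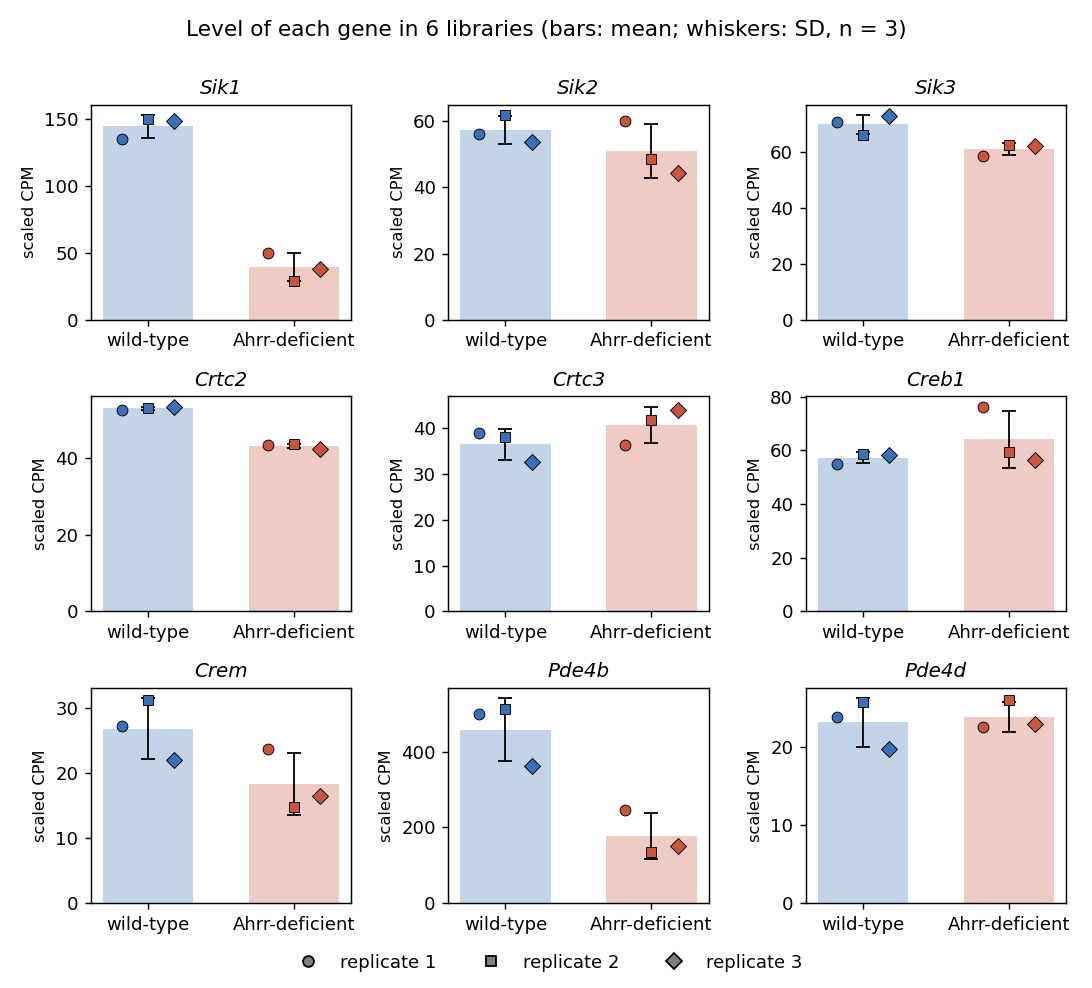
Level of each of the 9 genes in scaled CPM (vertical axes, each starting at 0) in wild-type (blue) and Ahrr-deficient (red) samples, with bars for the mean, whiskers for the SD (n = 3) and a marker shape for each replicate number. Sik1 stood at 135 to 151 against 29.2 to 50.1 and Pde4b at 363 to 513 against 135 to 246, while Sik2, Crtc3, Creb1, Crem and Pde4d overlapped between the groups.

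Crtc2 (ENSMUSG00000027936.18, chr3:90254163-90264125, plus strand), a co-activator that carries the SIK signal to CREB, was the steadiest of the 9 genes within each genotype. It stood at 52.7, 53.2 and 53.5 scaled CPM in wild-type and 43.4, 43.7 and 42.5 in Ahrr-deficient libraries. The groups did not overlap, and each library lay close to the others of its genotype. The means were 53.1 ± 0.42 and 43.2 ± 0.60 (SD, n = 3), a log2 fold change of -0.30 ± 0.08. Only 1.02% of tested genes had a smaller SD of log2 CPM in the wild-type group and 1.157% in the Ahrr-deficient group. Counting error alone is larger than that spread in the shallow libraries, where Crtc2 had 303, 390 and 156 counts (wild-type replicates 2 and 3 and Ahrr-deficient replicate 1).

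Crtc3 (ENSMUSG00000030527.15, chr7:80586627-80688877, minus strand), the other CRTC known to act downstream of SIKs in macrophages, was at 38.9, 38.1 and 32.6 scaled CPM against 36.5, 41.9 and 44.1. Its groups overlapped, with a log2 fold change of 0.17 ± 0.11, opposite in sign to that of Crtc2. Per length of exon Crtc2 led the family in every library, at 13.0 scaled RPKM in wild-type and 10.6 in Ahrr-deficient cells on average. Crtc3 followed at 3.71 and 4.15. The share of Crtc2 in the summed CRTC level was 71.9% ± 0.83 in wild-type and 66.3% ± 1.2 in Ahrr-deficient libraries, and that of Crtc3 20.6% ± 1.8 and 26.0% ± 2.3, both without overlap between the groups. Crtc1, the relative best known from neurons, made up 7.54% and 7.69%.

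Creb1 (ENSMUSG00000025958.14, chr1:64532645-64604548, plus strand), the factor that protein kinase A phosphorylates, was at 55.0, 58.6 and 58.3 scaled CPM in wild-type and 76.3, 59.5 and 56.6 in Ahrr-deficient libraries. Ahrr-deficient replicate 1 stood apart above the other 5 libraries, and the rest of the group overlapped with wild-type. The log2 fold change of Creb1 was 0.14 ± 0.12. Crem (ENSMUSG00000063889.16, chr18:3266048-3337748, minus strand), which encodes both activators and the cAMP-induced repressor forms, was at 27.2, 31.2 and 21.9 against 23.7, 14.8 and 16.4 scaled CPM. The groups overlapped through Ahrr-deficient replicate 1, which lay above wild-type replicate 3. For Crem the log2 fold change was -0.64 ± 0.18. Counts per gene do not separate its activator from its repressor transcripts, of which the annotation holds 32 that are protein coding.

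Of the summed level per length of Creb1, Crem and Atf1, a close relative of Creb1, Crem held 22.9% ± 2.4 in wild-type and 15.6% ± 3.1 in Ahrr-deficient libraries, without overlap (lowest wild-type library 20.2%, highest Ahrr-deficient library 19.1%). The sum was 19.8 scaled RPKM in both genotypes.

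Pde4b (ENSMUSG00000028525.16, chr4:102087543-102607259, plus strand), the PDE4 form that inflammatory stimuli induce in myeloid cells, was the most abundant of the 9 genes. It stood at 499.8, 513 and 363 scaled CPM in wild-type libraries and at 246, 135 and 151 in Ahrr-deficient ones. The groups did not overlap, although wild-type replicate 3 was the lowest of its group and Ahrr-deficient replicate 1 the highest of its own. The means were 459 ± 83 and 177 ± 60 (SD, n = 3), with a log2 fold change of -1.38 ± 0.23. The Ahrr-deficient libraries held 53.6%, 29.4% and 33.0% of the wild-type mean.

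Pde4d (ENSMUSG00000021699.17, chr13:108449948-109953461, plus strand), a relative that ends cAMP signals at receptor complexes, was at 23.8, 25.8 and 19.8 against 22.6, 26.0 and 22.9 scaled CPM. The groups overlapped fully, with a log2 fold change of 0.06 ± 0.12. Pde4b was thus lower in the Ahrr-deficient cells and Pde4d at about the wild-type level in the same libraries. Pde4b made up 90.5% ± 1.3 of the summed PDE4 level per length (Pde4a, Pde4b and Pde4d) in wild-type and 79.3% ± 6.3 in Ahrr-deficient libraries. That sum was 47.9 ± 8.1 scaled RPKM in wild-type and 20.9 ± 5.3 in Ahrr-deficient cells, without overlap.

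**Figure D2:**
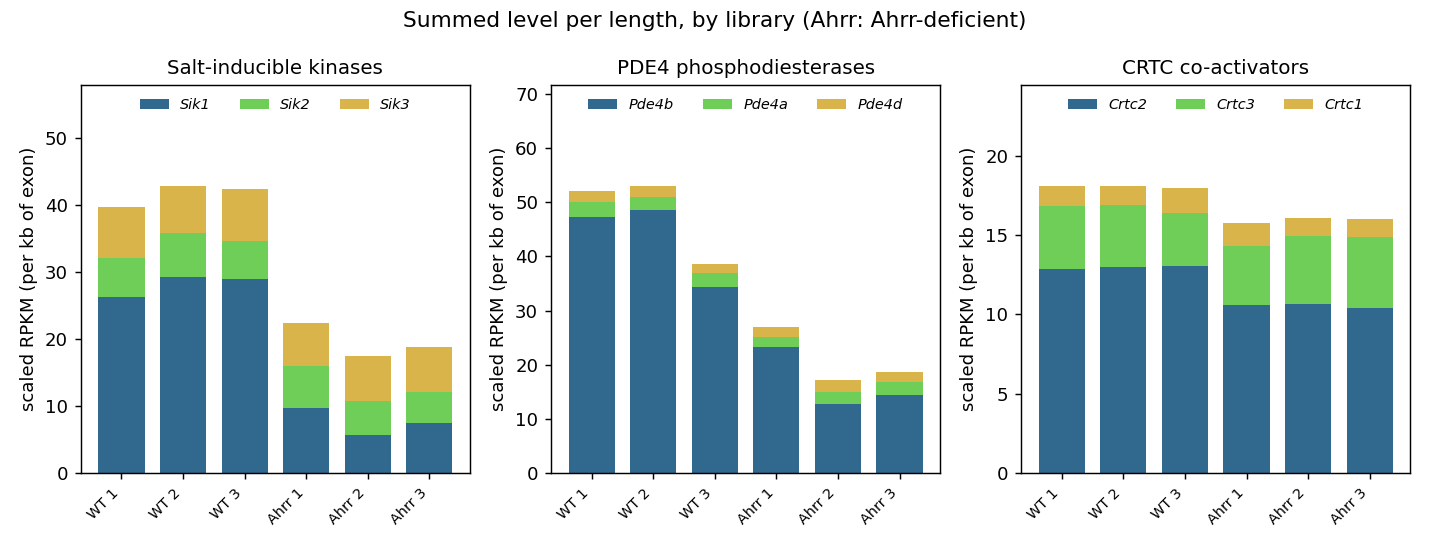
Summed level per kilobase of exon (vertical axes, scaled RPKM) of the SIK, PDE4 and CRTC transcripts in each of the 6 libraries, stacked by gene. Sik1 filled 66.1% to 68.3% of the wild-type SIK bars and 32.6% to 43.6% of the Ahrr-deficient ones, and Pde4b was the largest segment of every PDE4 bar.

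Taking the 9 genes in order of their mean level per length in wild-type cells, Pde4b (43.4 scaled RPKM) and Sik1 (28.2) came before Crtc2 (13.0), Sik3 (7.52) and Sik2 (6.01). Crem (4.55), Creb1 (4.17), Crtc3 (3.71) and Pde4d (1.93) followed. In the wild-type libraries the range of Crem overlapped those of Creb1 and Crtc3, and the other neighbours in this order did not overlap. In Ahrr-deficient cells Pde4b (16.8) still led, Crtc2 (10.6) came before Sik1 (7.64), and Sik3 (6.57) and Sik2 (5.36) were next. Creb1 (4.67) and Crtc3 (4.15) preceded Crem (3.10) and Pde4d (1.98). There the range of Sik1 overlapped those of Sik3 and Sik2, that of Sik2 overlapped that of Creb1, and those of Creb1, Crtc3 and Crem overlapped from neighbour to neighbour. Both orders depend on the exon length used, which counts all annotated exons of a gene. In scaled CPM the wild-type mean of Creb1 (57.3) was above that of Crem (26.8).

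Of the 9 genes, 4 were past the adjusted p threshold of 0.05 in edgeR, all lower in the Ahrr-deficient cells (Sik1, Pde4b, Crem and Crtc2), and 0 were higher, nor was any of the 3 with a positive value at an unadjusted p under 0.05 or called by DESeq2 or limma-voom. In the same test 19.6% of the 11408 tested genes were past the threshold, 9.95% lower and 9.62% higher. The groups did not overlap for 4 members, all lower (Sik1, Pde4b, Crtc2 and Sik3), against 38.8% of tested genes in either direction and 19.6% in that one. Without the TMM factors this was 3 members, all lower, against 36.6% of tested genes in either direction and 12.8% in the lower one. The median log2 fold change was -0.19 over the 9 genes and 0.01 over all tested genes, with 6 negative and 3 positive members. Since this contrast served to choose the group, nothing is read from these counts. The smallest member difference past the threshold was that of Crtc2 (-0.30), and the largest not past it were those of Sik3 (-0.19) and Sik2 (-0.18).

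Ahrr-deficient replicate 1 was the highest library of its genotype for 5 of the 9 genes (Sik1, Sik2, Creb1, Crem and Pde4b). It was also the shallowest library and the one with the highest summed macrophage marker level of its group, 23327 scaled CPM, and the part of either in these values was not tested. In the fit without it, the log2 fold changes were -2.13 for Sik1, -1.69 for Pde4b and -0.80 for Crem, and Sik2 joined the genes past the threshold. Leaving out another library kept Sik1 and Pde4b past the threshold in every case. Crem was past it only in the fits without wild-type replicate 3 or without Ahrr-deficient replicate 1, and Crtc2 only in the fit without Ahrr-deficient replicate 1. These refits reuse the libraries on which the members were selected. They describe dependence on single libraries and are no separate support for a difference.

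**Figure D3:**
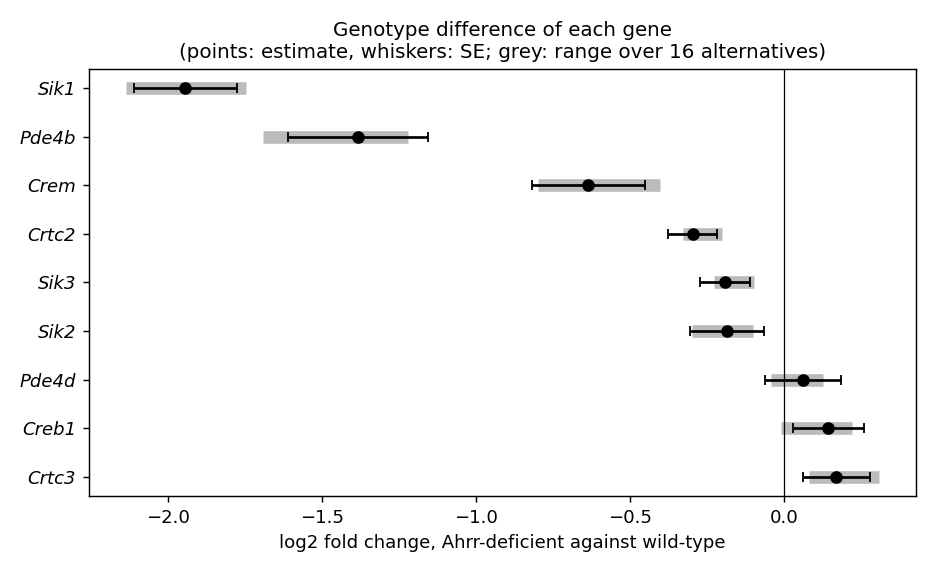
Log2 fold change of each of the 9 genes (horizontal axis, Ahrr-deficient against wild-type), with points for the estimate, whiskers for its SE and grey bars for the range over 16 alternative analyses. Sik1, at -1.94, and Pde4b, at -1.38, lie apart from the other 7 genes, which are between -0.64 and 0.17.

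The rest of the cAMP pathway was described with 9 lists holding 120 genes, of which 96 were in the table and 85 were tested. None of them is among the 9 members. Past an adjusted p of 0.05 in edgeR were 33 of the 85, 8 higher and 25 lower in the Ahrr-deficient cells. Over all tested genes the share was 19.6%, with 9.62% higher and 9.95% lower. The median log2 fold change of the 85 was -0.14. The CREB target list accounts for 13 of the 33, 1 higher and 12 lower. The lists were put together with earlier results of these data known.

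Among the receptors that raise cAMP through the stimulatory G protein, 8 were tested, 2 rose and 2 fell. Ptgir, the prostacyclin receptor, was at 73.2, 63.5 and 66.2 scaled CPM in wild-type and 113, 244 and 169.6 in Ahrr-deficient libraries (log2 fold change 1.39 ± 0.23, edgeR adjusted p = 0.00594). Adora2b, the low-affinity adenosine receptor, rose from 2.58 ± 0.87 to 6.25 ± 0.48 scaled CPM (log2 fold change 1.18 ± 0.23, edgeR adjusted p = 0.00983). These 2 calls held with each library left out and in all 16 alternatives. Gpr65, a proton-sensing receptor, was lower by -1.14 ± 0.31 (edgeR adjusted p = 0.0347), with overlapping groups, and of the 6 fits with a library left out its call held only without Ahrr-deficient replicate 1.

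Of the 8 tested G protein subunits and adenylyl cyclases, 2 rose and 2 fell. Adcy4, a cyclase activated by Gs and Gβγ, fell from 6.86 ± 2.2 to 2.57 ± 1.9 scaled CPM (log2 fold change -1.82 ± 0.40, edgeR adjusted p = 0.0165), with Ahrr-deficient replicate 1 at 4.73, close to the lowest wild-type library at 5.28. Adcy3 rose from 24.9 ± 4.1 to 41.7 ± 10.2 (0.78 ± 0.18, edgeR adjusted p = 0.0203). Gnas, which encodes the stimulatory α subunit in a locus with overlapping and opposite-strand transcripts, fell from 22.0 ± 0.75 to 13.4 ± 3.5 (-0.62 ± 0.16, edgeR adjusted p = 0.0254). Each of these 3 calls was lost with some libraries left out. Adcy4 lost it without wild-type replicate 3, Ahrr-deficient replicate 2 or Ahrr-deficient replicate 3, Gnas without any wild-type library or Ahrr-deficient replicate 3, and Adcy3 without any library other than Ahrr-deficient replicate 1. The exons of Adcy3 also overlap those of Cenpo on the other strand over 1380 bases. Adcy7, an adenylyl cyclase prominent in blood cells, was at 548 ± 24 and 469.7 ± 53 scaled CPM (log2 fold change -0.22 ± 0.11, edgeR adjusted p = 0.19), and it was chosen for mention after its values were seen.

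Of the 7 tested genes of protein kinase A subunits, its inhibitors and Epac, 1 was past the threshold, Pkig, a protein kinase A inhibitor that fell (-0.38 ± 0.10, edgeR adjusted p = 0.0244), and its call held in 6 of 16 alternatives. In this list 2 genes were higher at an unadjusted p under 0.05, limma-voom called 1 higher gene beside 1 lower, DESeq2 called 0 genes, and without Ahrr-deficient replicate 1 edgeR called 4 (2 higher and 2 lower). Of the 8 tested A-kinase anchoring proteins 0 were past it in edgeR, DESeq2 or limma-voom, with 1 at an unadjusted p under 0.05 in edgeR and 1 called without Ahrr-deficient replicate 1. The same tools called 0 of the 4 tested relatives and partners of CREB (Atf1, Crtc1, Crebbp and Ep300), and 0 had an unadjusted p under 0.05. The medians of these 3 lists were 0.08, 0.09 and -0.11.

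Among the other cyclic nucleotide phosphodiesterases, 8 were tested, 1 rose and 2 fell. Pde1c, a calcium-activated enzyme, was lower at 3.11 ± 2.0 against 6.15 ± 0.68 scaled CPM (log2 fold change -1.20 ± 0.33, edgeR adjusted p = 0.0339). Pde3b, an enzyme inhibited by cGMP, was at 177 ± 37 against 243 ± 17 (-0.47 ± 0.14, edgeR adjusted p = 0.0465). Pde8a, which has high affinity for cAMP, was at 69.4 ± 1.7 against 58.1 ± 1.8 (0.26 ± 0.08, edgeR adjusted p = 0.0452). With a library left out, each of these 3 calls held only in the fit without Ahrr-deficient replicate 1. The other 5 genes of the list that were tested, Pde4a among them, were not past the threshold.

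Of 18 tested genes in the list of the kinase upstream of SIKs, their deacetylase substrates, 14-3-3 proteins and calcineurin, 3 fell and 2 rose in edgeR. With a library left out the number called went from 1 (without wild-type replicate 1) to 8 (without Ahrr-deficient replicate 1). Stk11, the LKB1 kinase that must phosphorylate SIKs for them to be active, fell from 104 ± 7.5 to 78.8 ± 3.9 scaled CPM (-0.41 ± 0.08, edgeR adjusted p = 0.0134). The adjusted p of Stk11 was 0.0700 with offsets for GC content and 0.0914 without wild-type replicate 1. Hdac5, a class IIa histone deacetylase phosphorylated by SIKs, fell from 94.4 ± 7.4 to 61.4 ± 6.2 (-0.63 ± 0.10, edgeR adjusted p = 0.00585), with each library left out as well. Its relative Hdac7 fell from 1.89 ± 0.21 to 0.628 ± 0.35 (-1.53 ± 0.32, edgeR adjusted p = 0.0132), at a level near 1 scaled CPM, and lost the call without wild-type replicate 1 or Ahrr-deficient replicate 2. The exons of Hdac7 overlap those of Slc48a1 on the other strand over 29 bases. Slc48a1 held 568 to 6495 counts per library, and its part in the Hdac7 level was not tested. A 14-3-3 gene (Ywhaz) and the regulatory calcineurin subunit Ppp3r1 were the 2 higher genes of this list. Ywhaz lost its call without any of the wild-type libraries, and Ppp3r1 without any of these or Ahrr-deficient replicate 2. Without Ahrr-deficient replicate 1 the list had 5 higher genes.

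SIKs belong to a larger family of kinases related to the AMP-activated kinase AMPK. Of the 8 others tested, 3 fell and 0 rose in edgeR, DESeq2 and limma-voom alike, with 1 higher at an unadjusted p under 0.05 in edgeR and 1 called higher without Ahrr-deficient replicate 1. Nuak2 fell from 60.3 ± 8.7 to 29.9 ± 7.8 scaled CPM (-1.08 ± 0.18, edgeR adjusted p = 0.00594), a call that held in all 16 alternatives. Nuak1 (-0.71 ± 0.18, edgeR adjusted p = 0.0271) and Snrk (-0.44 ± 0.09, edgeR adjusted p = 0.0141) each lost theirs without wild-type replicates 1 or 3 or without Ahrr-deficient replicates 2 or 3.

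**Figure D4:**
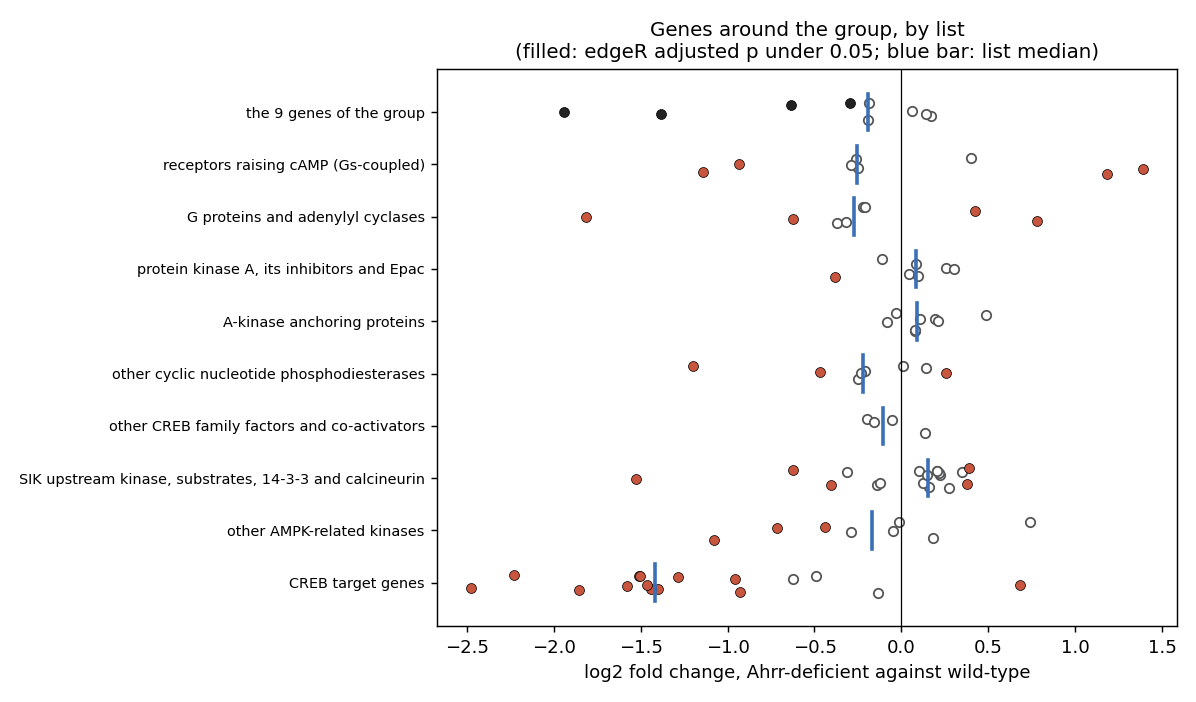
Log2 fold change (horizontal axis, Ahrr-deficient against wild-type) of the 9 genes and of the tested genes of each surrounding list, with filled points for an edgeR adjusted p under 0.05 and a blue bar for each list's median. The CREB target genes lie to the left with a median of -1.42, and the medians of the other lists are between -0.27 and 0.15.

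Most of the tested CREB target genes fell. Of 24 listed, 19 were in the table and 16 tested, and 12 fell, 1 rose and 3 were not past the threshold in edgeR, against 9.95% and 9.62% of all tested genes. The list's median log2 fold change was -1.42, against 0.01 for all tested genes. Many of these are immediate-early genes that growth factor, stress and inflammatory signals also induce, so the list is not specific to cAMP, and it was put together with earlier results of these data known. The summed macrophage marker level was also lower in each Ahrr-deficient library (15741 to 23327 scaled CPM) than in any wild-type library (24437 to 27203). That sum is mostly Lyz2 and overlapped between the groups without the TMM factors. With these factors the sum without Lyz2 was lower as well, at 3777 to 4350 against 4942 to 5172 scaled CPM. The part of the marker level in these differences was not tested.

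Fos, an AP-1 subunit, was at 325, 361 and 406 scaled CPM in wild-type and 83.8, 57.1 and 58.3 in Ahrr-deficient libraries (log2 fold change -2.48 ± 0.16, edgeR adjusted p = 0.000308). Nr4a2, an orphan nuclear receptor used as a classical CREB reporter gene, was at 12.4, 17.2 and 7.13 against 5.85, 1.68 and 2.95 (-2.23 ± 0.43, edgeR adjusted p = 0.00964). Btg2, an antiproliferative gene, was at 431, 465 and 515 against 173, 106 and 114 (-1.86 ± 0.18, edgeR adjusted p = 0.00101). None of the 3 overlapped between the groups, and Ahrr-deficient replicate 1 was the highest of its group for each. Nr4a2 missed the threshold without wild-type replicate 1 (adjusted p = 0.0501) or Ahrr-deficient replicate 2 (adjusted p = 0.0502).

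The other 9 that fell were Nr4a1, Fosb, Junb, Per1, Dusp1, Rgs2, Nfil3, Thbs1 and Vegfa, with log2 fold changes between -1.58 (Rgs2) and -0.93 (Per1), and each kept its call in all 16 alternatives. They include the AP-1 subunits Junb and Fosb, the phosphatase Dusp1 that ends MAP kinase signals, the clock gene Per1 and the G protein regulator Rgs2. The exons of Junb overlap those of Prdx2 on the other strand over 173 bases. Klf4, a transcription factor of myeloid cells, was the 1 gene that rose, from 143 ± 9.15 to 229 ± 26 scaled CPM (0.68 ± 0.10, edgeR adjusted p = 0.00425). Nr4a3 (-0.63 ± 0.38), Egr1 (-0.49 ± 0.35) and Arg1 (-0.14 ± 0.20) were not past the threshold, with edgeR adjusted p of 0.271, 0.349 and 0.657. Egr1 ranged from 35.2 to 118 scaled CPM among the wild-type libraries alone. With a library left out, 11 to 13 of the list's genes were called lower and 1 higher, and the lowest number came without wild-type replicate 1 or without Ahrr-deficient replicate 2.

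**Figure D5:**
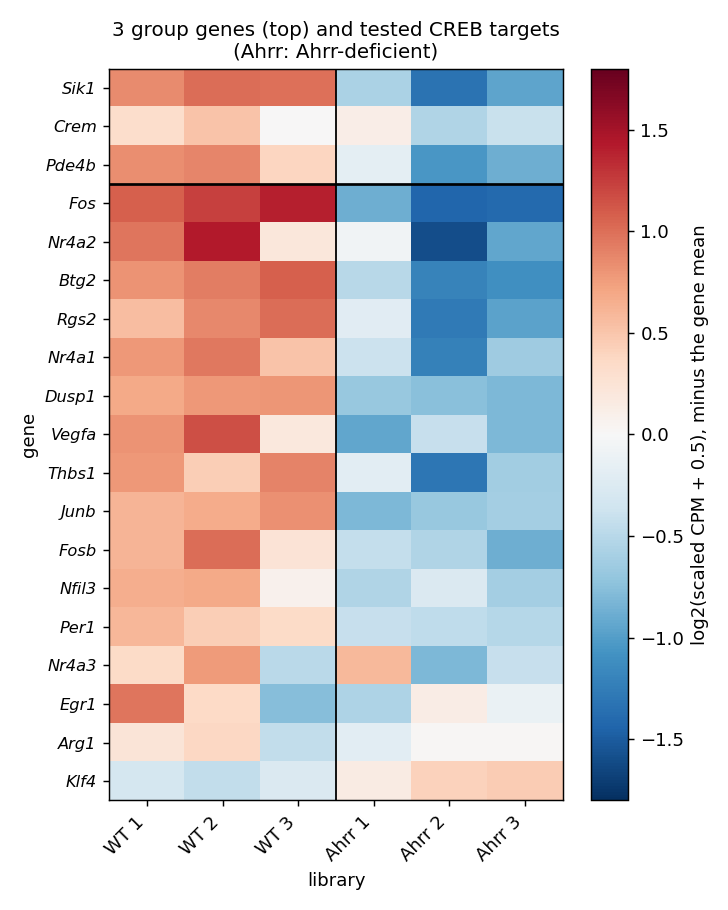
Level of Sik1, Crem, Pde4b (top) and the 16 tested CREB target genes in each library (columns), as log2(scaled CPM + 0.5) minus the gene's mean over the 6 libraries (red above, blue below). For Sik1, Pde4b and most of the targets the 3 wild-type columns are red and the 3 Ahrr-deficient columns blue, with Ahrr-deficient replicate 1 paler for Sik1, Pde4b, Nr4a2, Btg2 and Rgs2, and with the reverse for Klf4.

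By the profile of centred log2 CPM over the 6 libraries, the 5 tested genes nearest to Sik1 were Btg2 (root mean square difference 0.098 on the log2 scale), Oas2 (0.112), Zfp36 (0.134), Engase (0.147) and Thbd (0.187). They encode, in that order, the antiproliferative factor above, an interferon-induced oligoadenylate synthetase, the mRNA-destabilising protein tristetraprolin, a cytosolic glycosidase and thrombomodulin. Zfp36 stood at 422, 466 and 512 scaled CPM in wild-type and 202, 109.8 and 133 in Ahrr-deficient libraries, and Engase at 142, 174 and 158 against 54.0, 24.6 and 36.6. In each of the 5 the Ahrr-deficient libraries came in the order of Sik1, with replicate 1 highest and replicate 2 lowest. The 5 were picked for closeness to Sik1 over these same libraries, so this order largely follows from the choice. Among the other members, Pde4b was the nearest to Sik1 (0.328, rank 49 of the tested genes), followed by Crem (0.698, rank 709). Closeness over 6 libraries that fall into 2 genotypes is a description and says nothing of a shared control.

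Ahr, the gene of the receptor that Ahrr represses, was at 7.65, 5.44 and 3.57 scaled CPM in wild-type and 10.9, 31.9 and 23.3 in Ahrr-deficient libraries (log2 fold change 2.00 ± 0.35, edgeR adjusted p = 0.00709). Its Ahrr-deficient libraries had the reverse order of those of Sik1, with replicate 1 lowest and replicate 2 highest. Replicate 1 also had the lowest total counts of all libraries (3556106) and replicate 2 the highest (41668336). An order of 3 libraries was not tested, and nothing is read from it.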

How the data were processed

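Polyadenylated RNA of 6 cultures was sequenced as single reads of 75 bases. The authors deposited raw read counts for 53465 features without identifiers, and a normalized signal with identifiers for 16111 genes, which is the count divided by a size factor per library. Multiplying by recomputed size factors gave whole reads for 100% of the values (tolerance 1e-06), matching the raw table for features with 10 or more counts in total, so identifiers could be joined. The submitters' processing notes name CASAVA 1.8.2, fastp 0.20.0, STAR 2.7.10b, SAMtools 1.16.1, R 4.3.1, DESeq2 1.40.2 and the build mm10. The counting program, annotation and use of strand are not given in the sources used here. Features without an identifier held 0.0232% to 0.0511% of a library's counts.

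Genotypes were compared by edgeR 4.0.16 under R 4.3.3, using its quasi-likelihood fit (TMM scaling, filterByExpr, genotype as the only term), two-sided, with Benjamini-Hochberg adjustment over 11408 genes and a threshold of 0.05. The biological coefficient of variation came to 13.0%. Standard errors come from the fold change and the F statistic. Groups and replicate numbers come from the titles. Nothing says that the 3 samples of a group came from separate litters. The p-values set the genotype difference against the spread between these samples, which may be smaller than that between litters. Levels, shares and profiles were computed with Python 3.11.15. Gene positions and exon lengths are from GENCODE release 21 (16088 of 16111 identifiers matched, 14473 with the same version), and promoters from RefSeq. The exon length of a gene counts each base of any annotated exon once, so levels and shares per length depend on the annotated transcripts.

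Named are the 9 members, the up to 3 called genes with the largest change of each surrounding list (every called one for receptors and phosphodiesterases, of which 1 receptor is not reported here), Ahrr, Ahr and the 5 profiles nearest to the member with the largest change. Any other gene was named after its values were seen. Members and lists were chosen with earlier results of these data known. Alternatives were RLE and upper-quartile scaling, no filter, limma-voom (limma 3.58.1), a minimum mean of 50 counts, DESeq2 1.42.0, a replicate block, thinning to the smallest library and each library left out. GC offsets, alone and with the block, were added after seeing the data.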

Additional observations from a re-analysis of the deposited data

How the results depend on the processing

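Over 16 alternatives Sik1 stayed between -2.13 and -1.75 and Pde4b between -1.69 and -1.22 on the log2 scale, past the threshold in all 16. Crem (-0.80 to -0.40) was past it in 10, Crtc2 (-0.33 to -0.20) in 5, Sik2 (-0.30 to -0.10) in 1, and Sik3 (-0.23 to -0.10), Creb1 (-0.01 to 0.22), Crtc3 (0.08 to 0.31) and Pde4d (-0.04 to 0.13) in none. Creb1 and Pde4d were negative in 2 alternatives each. All alternatives use the libraries on which the members were selected, so they are no separate support for a difference. GC offsets moved Sik3 to -0.10 and Crtc2 to -0.20. With a library left out, the number of genes past the threshold, 2232 of all tested genes, was 694 (without wild-type replicate 1) to 3857 (without Ahrr-deficient replicate 1), that of members, 4, was 2 to 5, and that of the surrounding pathway, 33, was 18 (without wild-type replicate 1) to 45 (without Ahrr-deficient replicate 1). Thinning to the smallest library gave 1251 genes and 2 members. Of the 33 surrounding calls, 17 held with each library left out and 16 in every alternative. Upper-quartile scaling gave 933 higher and 1301 lower genes, against 1097 and 1135. Deviations of same-numbered libraries correlated at -0.17, 0.07 and 0.13, and those of differently numbered libraries between -0.21 and 0.16. In groups of 3 libraries these values cannot settle whether same-numbered cultures were handled together. With the replicate block 1390 genes, 2 members and 27 surrounding genes were past the threshold, and with the replicate block and GC offsets 1276 genes, 3 members and 21 surrounding genes. No value of a named gene past the threshold changed sign. The cause of these differences was not tested. Depth limits genes of few counts most in Ahrr-deficient replicate 1, where Pde4d had 81 counts and 3 counts correspond to 0.844 CPM.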
